A study of Glycine max with 6 samples.

Results

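Plant cells enlarge only as far as their walls let them, and 4 families of proteins that act on the wall or build it are described here. Expansins loosen the wall at acid pH without cutting its polymers. Xyloglucan endotransglucosylases (XTHs) cut the xyloglucan chains that lie between cellulose microfibrils and rejoin them to other xyloglucan ends. Plant endoglucanases cut chains of beta-linked glucose, and a membrane-bound class of them is needed to make cellulose. Extensins are hydroxyproline-rich glycoproteins that are crosslinked into a network as the wall stiffens, and the leucine-rich repeat extensins (LRXs) join such a domain to a leucine-rich repeat that binds RALF peptides in Arabidopsis. The genes were chosen from the deposited whole-series table by the protein description attached to each gene. A gene was taken where that description holds expansin, xyloglucan endotransglucosylase, endoglucanase or extensin. This gave 154 of 36827 genes, namely 48 expansins, 33 XTHs, 27 endoglucanases and 46 extensins. No expression value entered the choice.

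The libraries came from trifoliolate leaves of soybean (Glycine max), taken 30 days after germination. Of the 6 libraries, 3 were labelled GmRAV1-ox, with GmRAV1 as genotype, and 3 were labelled DN50, with wild type as genotype. RAV proteins are transcription factors that bind DNA through domains of the AP2 and B3 kinds. The construct behind the GmRAV1-ox label, the number of lines and whether the replicates of a group were separate plants could not be taken from the labels, so a p-value measures the spread between these libraries, which may be technical.

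Library totals lay between 7208496 and 7684540 counts. The targeted gene was looked at first. Of 4 genes described as RAV-like or TEM1-like, none was above every DN50 library in all 3 GmRAV1-ox libraries. Glyma01g22260.1 had 20.8, 18.8 and 27.8 FPKM in GmRAV1-ox and 17.3, 17.6 and 28.2 FPKM in DN50 in replicates 1, 2 and 3, with a log2 fold change of -0.05 (edgeR adjusted p 0.928). Glyma20g32730.1, too low to be tested, had 1.69, 3.28 and 0.28 FPKM in GmRAV1-ox and 0.13, 0.56 and 0.41 FPKM in DN50. Its counts were higher than in DN50 in replicates 1 and 2 and not in replicate 3. Which of these genes is GmRAV1 is not given in the files used here, so the labels could not be checked on it, and every direction below goes by the labels. GmRAV1-ox replicate 3 stood apart from replicates 1 and 2. Its Pearson correlation in log2 CPM over the tested genes was 0.908 with GmRAV1-ox replicate 1 and 0.883 with replicate 2, and 0.943, 0.939 and 0.918 with DN50 replicates 1, 2 and 3, whereas GmRAV1-ox replicates 1 and 2 correlated at 0.967. The calls of the 4 families are given below with and without it. At an adjusted p under 0.05, edgeR without it called 18.3% of all tested genes (8.62% higher and 9.66% lower). With all libraries the share was 0.700%. In the same libraries the markers of dividing cells (28 cyclin A, cyclin B and histone genes) summed to 115, 199 and 65.7 CPM (counts scaled by library size) in GmRAV1-ox, against 49.7, 57.6 and 49.5 CPM in DN50. The 31 mesophyll markers, small subunits of Rubisco and chlorophyll-binding proteins, summed to 67758, 52491 and 88535 CPM in GmRAV1-ox, against 103990, 86164 and 65356 CPM in DN50. No marker of either list was at 0 in every library. The part of dividing cells and of mesophyll content in the results was not tested.

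FPKM is a fragment count scaled by library size and coding length, so levels of different genes can be set beside each other in that unit. The scaling factors used for CPM were not applied to it. Per-library values are given in the order of replicates 1, 2 and 3. Leaf tissue expressed a broad set of the 4 families. In all, 98 of the 154 genes had counts in every library, 46 had a mean of at least 10 FPKM over the 6 libraries and 48 had a mean under 1 FPKM. The mean reached 10 FPKM in 14 expansins, 10 XTHs, 8 endoglucanases and 14 extensins. The summed level of the expansins was the highest of the 4 families, at 1419, 1189 and 1265 FPKM in GmRAV1-ox and 1423, 1415 and 1991 FPKM in DN50. XTHs summed to 360.4, 369 and 407 FPKM in GmRAV1-ox and 225, 284 and 259.7 FPKM in DN50. The XTH sum was thus higher in each GmRAV1-ox library than in any DN50 library. In CPM the gap was narrower, with XTH sums of 284, 266 and 372 in GmRAV1-ox and 231, 257 and 227 in DN50. The expansin sum in CPM was 946, 731 and 933 in GmRAV1-ox and 1187, 1054 and 1380 in DN50, lower in each GmRAV1-ox library than in any DN50 library. The endoglucanase sum was 568, 554 and 224 FPKM in GmRAV1-ox and 256, 371 and 324 FPKM in DN50. The extensin sum was 637, 610.5 and 258 FPKM in GmRAV1-ox and 289, 443 and 328 FPKM in DN50. For these last 2 families GmRAV1-ox replicates 1 and 2 were above every DN50 library and replicate 3 was below every DN50 library.

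**Figure D1:**
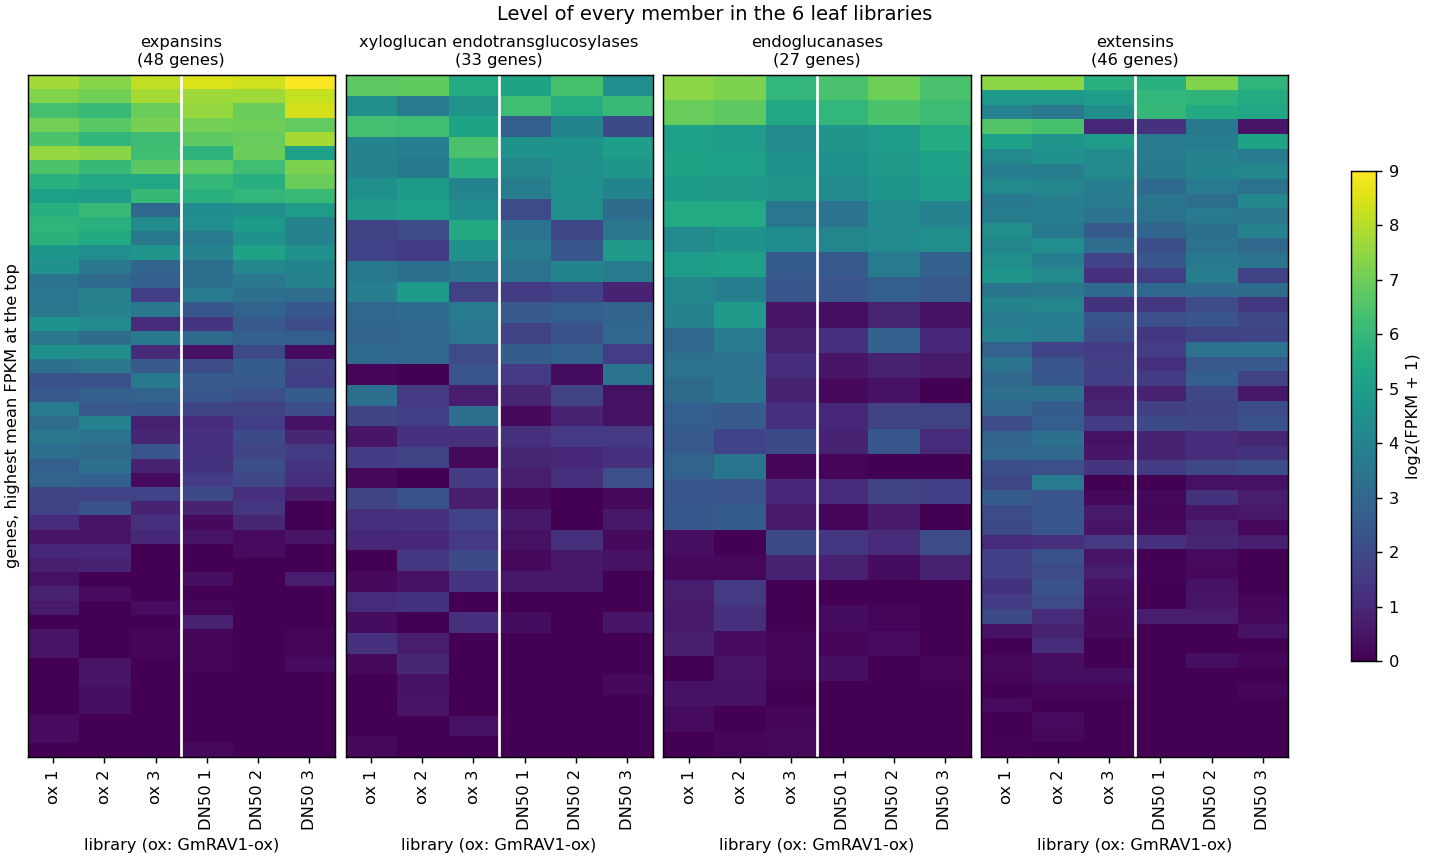
Level of every gene of the 4 families as log2(FPKM + 1), with genes in rows by mean FPKM and the 3 GmRAV1-ox (ox) libraries left of the 3 DN50 libraries. The expansin panel holds the brightest rows, and in the endoglucanase and extensin panels many rows are brighter in the first 2 columns than in GmRAV1-ox replicate 3.

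A filter on low counts left 87 of the 154 genes for testing, 30 expansins, 17 XTHs, 15 endoglucanases and 25 extensins, out of 26272 genes tested in all. A gene that is seen only in a group of libraries where it is high passes that filter through that group, so the tested genes are not a fair sample of the families. With edgeR's quasi-likelihood test and Benjamini-Hochberg adjustment over all tested genes, 184 genes passed a threshold of 0.05, which is 0.700% of those tested, 32 of them higher in GmRAV1-ox (0.122%) and 152 lower (0.579%). None of the 87 wall genes was among them. At an unadjusted p under 0.05 there were 24 of the 87 (27.6%), 16 higher and 8 lower, against 21.3% of all tested genes (10.6% higher and 10.7% lower). DESeq2, which gave a p for 153 of the 154 genes, called 21 of them (15 higher and 6 lower) against 4.84% of all genes (2.08% higher and 2.76% lower), and limma on log2(FPKM + 1) called none. Median log2 fold changes were 0.51 in expansins, 0.50 in XTHs, 0.53 in endoglucanases and 0.39 in extensins, against 0.01 over all tested genes. These medians moved with single libraries. The endoglucanase median was 1.19 without GmRAV1-ox replicate 3, 1.13 without DN50 replicate 2 and 0.20 without GmRAV1-ox replicate 1. The extensin median was 0.82, 0.91 and 0.12 in the same fits, and 0.69 without DN50 replicate 3. The expansin median was 0.29 without DN50 replicate 3, and the XTH median stayed between 0.43 and 0.61 with any 1 library left out. Without scaling factors the 4 medians were 0.68, 0.66, 0.70 and 0.54 against 0.20. Since RNA came from whole leaves, a change in the number of cells of a type and a change in RNA per cell cannot be told apart in any of these values.

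**Figure D2:**
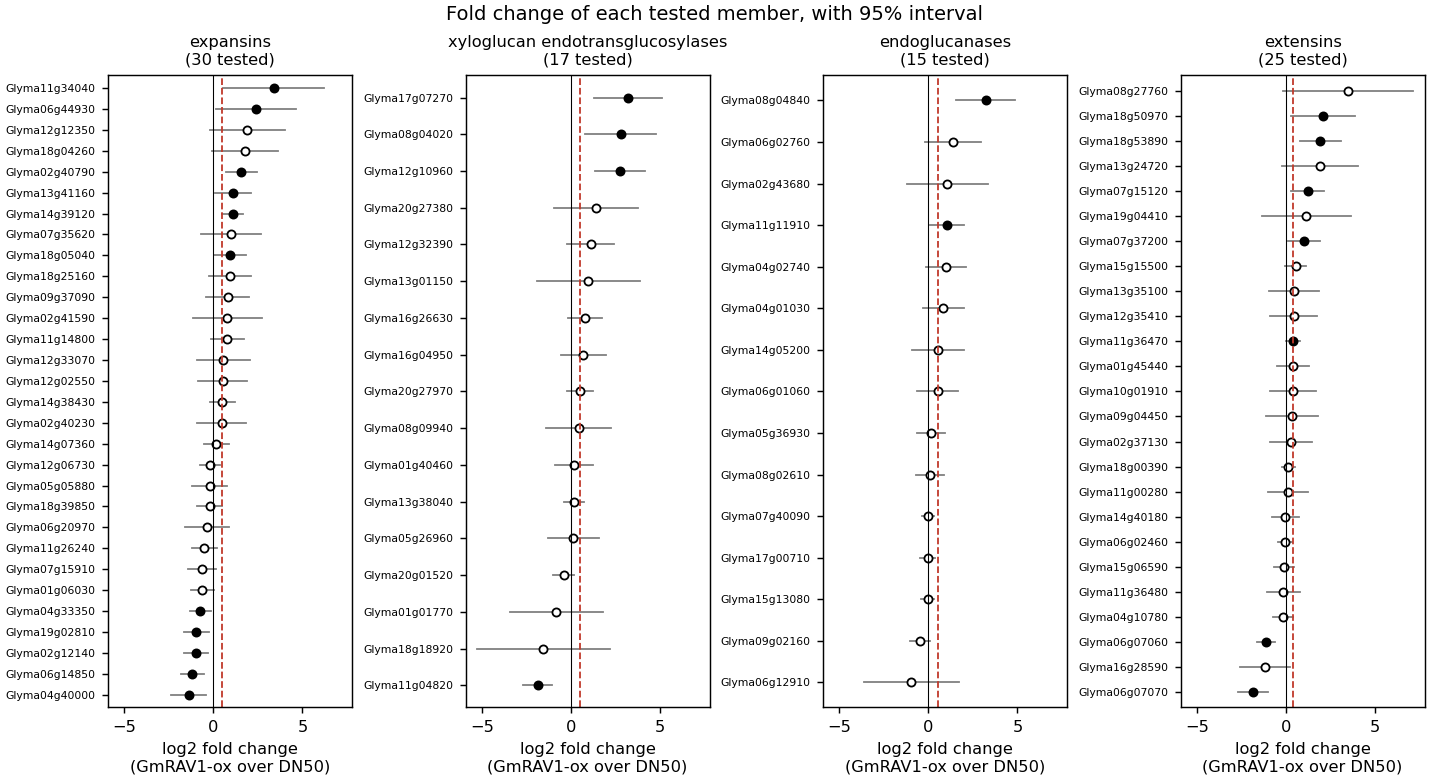
Fitted log2 fold change (GmRAV1-ox over DN50) of each tested gene with its 95% interval, by family. Filled points have an unadjusted p under 0.05, the solid line is at 0, and the red dashed line is the family's median, which lies between 0.39 and 0.53 in the 4 families.

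Of the 9 expansins with the highest mean FPKM, a number chosen after the values were seen, 8 had estimates below 0. The other tested expansins had estimates on both sides of 0. None of the 30 tested passed the adjusted threshold by edgeR, and DESeq2 called 6 of 48 (12.5%, background 4.84%), 3 higher and 3 lower. By description the family held 31 alpha-expansins, the class first shown to extend isolated walls, 5 beta-expansins, a class that includes the grass pollen allergens, 1 expansin-like A, 8 expansin-like B and 3 with no class given. Expansin-like proteins share the domains but have no loosening activity shown. Of the 30 tested, 11 had an unadjusted p under 0.05 (36.7%, background 21.3%), 6 higher and 5 lower, and the estimates ran from -1.39 to 3.38 on the log2 scale, 18 above 0 and 12 below.

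The highest expansin in these leaves was the alpha-expansin Glyma02g12140.1, which carries the symbol EXP4 in the RefSeq table, with 216, 163 and 284 FPKM in the GmRAV1-ox libraries, against 365, 325 and 497 FPKM in the DN50 libraries. Its groups did not overlap, and the log2 fold change was -0.99 (95% interval -1.68 to -0.3, edgeR adjusted p 0.137, n = 3 libraries each). Next came Glyma01g06030.1, an alpha-expansin with 157, 135 and 218 FPKM in GmRAV1-ox and 206, 207 and 297 FPKM in DN50 and a log2 fold change of -0.62 (edgeR adjusted p 0.24). Here the highest GmRAV1-ox library, replicate 3, exceeded 2 of the DN50 libraries, so the groups overlapped. The next in level, Glyma04g40000.1, had 79.1, 66.5 and 125 FPKM in GmRAV1-ox and 189, 122 and 338 FPKM in DN50 and a log2 fold change of -1.39 (95% interval -2.37 to -0.41, edgeR adjusted p 0.141). Only its replicate 3, with 125 FPKM, reached into the DN50 range.

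The expansin with the second smallest p, Glyma06g14850.1, is described as an expansin precursor with no class. It had 87, 59.3 and 70.5 FPKM in the GmRAV1-ox libraries, against 108, 119 and 221 FPKM in the DN50 libraries, so that no GmRAV1-ox library reached the lowest DN50 library. Its log2 fold change was -1.19 (95% interval -1.84 to -0.55, edgeR adjusted p 0.0981, and 0.00467 by DESeq2). Glyma06g14850.1 and Glyma04g40000.1 both held counts that were not whole, as can arise where reads are shared between similar genes, so their values were also summed. The sum of the pair was 108, 75.4 and 142 CPM in GmRAV1-ox and 244, 177 and 383 CPM in DN50, a ratio of 0.405. Since each gene of the pair was lower in GmRAV1-ox, the sum had to be lower too and is no separate support. This sum was chosen after the values were seen, as were all pair sums below.

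Not every abundant alpha-expansin stood lower. Glyma12g06730.1, which has the RefSeq symbol EXP5A and is named here after its values were seen, had 138, 102 and 141 FPKM in GmRAV1-ox and 138, 131 and 112 FPKM in DN50, with overlapping groups and a log2 fold change of -0.18 (95% interval -0.74 to 0.37). Glyma09g37090.1, likewise chosen after its values were seen, had 188, 169 and 73.8 FPKM in GmRAV1-ox and 55.8, 124 and 33.2 FPKM in DN50. It was the 1 gene of the 9 with an estimate above 0, at 0.8 (95% interval -0.43 to 2.02), and DN50 replicate 2 was above GmRAV1-ox replicate 3. DN50 replicate 3 had the highest value of all libraries in Glyma02g12140.1, Glyma01g06030.1, Glyma04g40000.1 and Glyma06g14850.1. Without GmRAV1-ox replicate 3 these 4 genes had log2 fold changes of -1.32, -0.95, -1.82 and -1.26, each past the adjusted threshold by edgeR (adjusted p 0.0109, 0.0206, 0.0171 and 0.0274). That fit called 18.3% of all tested genes (9.66% lower), where the fit of all libraries called 0.700%. With GmRAV1-ox replicate 3 in place DESeq2 called 3 of the 4 and missed Glyma01g06030.1.

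On the higher side, the alpha-expansin Glyma14g39120.1 had the smallest p of the family, with 11.02, 14.8 and 11.3 FPKM in the GmRAV1-ox libraries, against 4.42, 6.44 and 4.55 FPKM in the DN50 libraries. All GmRAV1-ox libraries, replicate 3 included, lay above all DN50 libraries. The log2 fold change was 1.07 (95% interval 0.51 to 1.64, edgeR adjusted p 0.093) and hardly moved without GmRAV1-ox replicate 3, at 1.04 (edgeR adjusted p 0.0339). The alpha-expansin Glyma02g40790.1 had 8.71, 7.54 and 4.21 FPKM in the GmRAV1-ox libraries, against 1.38, 2.68 and 1.95 FPKM in the DN50 libraries, again without overlap. Its log2 fold change was 1.57 (95% interval 0.71 to 2.43, edgeR adjusted p 0.1, and 0.0135 without GmRAV1-ox replicate 3). Over the 30 tested expansins, 3 lay apart and higher and 4 apart and lower on the CPM scale (23.3%), against 26.0% of all genes.

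The third was the alpha-expansin Glyma13g41160.1, with 11.7, 4.65 and 4.63 FPKM in GmRAV1-ox and 2.72, 2.45 and 3.36 FPKM in DN50 and a log2 fold change of 1.11 (edgeR adjusted p 0.204). Other expansins with high estimates were high in replicates 1 and 2 only. They and Glyma13g41160.1 are named after their values were seen. The alpha-expansin Glyma11g34040.1 had 21.9, 20.6 and 1.15 FPKM in the GmRAV1-ox libraries, against 0.36, 3.01 and 0.19 FPKM in the DN50 libraries, a log2 fold change of 3.38 with a 95% interval of 0.55 to 6.2. Replicates 1 and 2 stood far above DN50, and replicate 3 lay within the DN50 range. Its edgeR adjusted p was 0.182 over all 6 libraries and 0.00907 without GmRAV1-ox replicate 3, and DESeq2 called it at 0.022. The tested beta-expansins shared this pattern. Glyma12g33070.1 (EXPB8) had 50.5, 65.4 and 7.22 FPKM in GmRAV1-ox and 19.8, 20.96 and 30.1 FPKM in DN50. Glyma12g12350.1 (EXPB7) had 23.5, 17.7 and 1.11 FPKM in GmRAV1-ox and 1.57, 4.71 and 3.4 FPKM in DN50. Glyma06g44930.1 (EXPB4) had 8.26, 14.9 and 0.74 FPKM in GmRAV1-ox and 1.22, 2.17 and 0.36 FPKM in DN50. In the first 2 of these genes replicate 3 was below every DN50 library. Their log2 fold changes were 0.57, 1.91 and 2.4 over all libraries. Without GmRAV1-ox replicate 3 they were 1.02, 2.42 and 2.9, and all 3 genes passed by edgeR. That fit called 18.3% of all tested genes (8.62% higher). The genes of this paragraph were described for being high in replicates 1 and 2, so passing there adds no separate support. Glyma12g12350.1 and Glyma06g44930.1 both held counts that were not whole, and their sum was 22.2, 20.9 and 1.44 CPM in GmRAV1-ox and 2.46, 5.41 and 2.77 CPM in DN50.

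The single expansin-like A, Glyma12g02550.1, had 3.77, 3.81 and 11.6 FPKM in the GmRAV1-ox libraries, against 4.82, 5.01 and 2.2 FPKM in the DN50 libraries, with replicate 3 the highest of all libraries. Its log2 fold change was 0.51 with all libraries and -0.37 without GmRAV1-ox replicate 3, so that library set its direction. Of the 8 expansin-like B genes only Glyma05g05880.1, named after its values were seen, was tested, with 22.5, 11.2 and 6.57 FPKM in GmRAV1-ox and 8.6, 16.9 and 15.6 FPKM in DN50 and a log2 fold change of -0.21. The other 7 had at most 5 counts in any library, and among them Glyma17g15670.1 and Glyma17g15640.1 had identical values in every library, so they cannot be told apart. The other expansins not tested, 7 alpha-expansins, 2 beta-expansins and 2 with no class, had at most 13 counts in any library.

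XTHs were higher in sum in every GmRAV1-ox library. The highest genes were Glyma16g04950.1 and Glyma12g10960.1 in replicates 1 and 2, and the XTH28 genes Glyma08g09940.1 and Glyma05g26960.1 in replicate 3. The family's smallest p belonged to a gene that stood lower, an XTH6. None of the 17 tested XTHs passed the adjusted threshold by edgeR, and 4 had an unadjusted p under 0.05 (23.5%, background 21.3%), 3 of them higher. The groups did not overlap on the CPM scale in 3 of the 17 (17.6%, background 26.0%), 2 higher and 1 lower. Estimates ran from -1.86 to 3.2, 13 above 0 and 4 below. DESeq2 called 5 of 32 (15.6%, background 4.84%), 4 higher and 1 lower.

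The lower gene, Glyma11g04820.1, is described as XTH6 and had 21.4, 12.4 and 24.3 FPKM in the GmRAV1-ox libraries, against 74.5, 46.1 and 67.9 FPKM in the DN50 libraries. No GmRAV1-ox library exceeded 24.3 FPKM and no DN50 library was under 46.1 FPKM. The mean was 19.4 ± 6.22 FPKM in GmRAV1-ox and 62.8 ± 14.9 FPKM in DN50 (SD, n = 3 each), with a log2 fold change of -1.86 (95% interval -2.67 to -1.06, edgeR adjusted p 0.0654, and 0.00671 without GmRAV1-ox replicate 3). The same gene passed with DESeq2 (adjusted p 7.11e-05) and in edgeR without scaling factors (adjusted p 0.0371, with 0.887% of all genes called). Another tested XTH6, Glyma01g40460.1, which is named after its values were seen, had 7.44, 7.22 and 3.15 FPKM in GmRAV1-ox and 5.34, 5.91 and 2.1 FPKM in DN50, with overlapping groups and a log2 fold change of 0.19. The difference between the 2 genes was not tested.

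XTH9 genes lay on the higher side. Glyma12g10960.1 had 78.2, 74.9 and 36.4 FPKM in the GmRAV1-ox libraries, against 5.57, 15.6 and 3.02 FPKM in the DN50 libraries. The lowest GmRAV1-ox library, replicate 3, was above the highest DN50 library, replicate 2. The log2 fold change was 2.76 (95% interval 1.38 to 4.14, edgeR adjusted p 0.093, 2.74e-05 by DESeq2, and 0.0228 without GmRAV1-ox replicate 3). The other XTH9 genes, named after their values were seen, were Glyma12g32390.1 and Glyma13g38040.1. Glyma12g32390.1 had 27.96, 32.6 and 19.9 FPKM in GmRAV1-ox and 3.27, 21.6 and 8.17 FPKM in DN50. Glyma13g38040.1 had 21.5, 28.8 and 15.8 FPKM in GmRAV1-ox and 13.1, 22.2 and 15.6 FPKM in DN50. Their groups overlapped and their log2 fold changes were 1.11 and 0.18. Summed over the 3 XTH9 genes the level was 128, 136 and 72.1 FPKM in GmRAV1-ox and 21.9, 59.3 and 26.8 FPKM in DN50.

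The highest XTH of these leaves, Glyma16g04950.1, described as a probable XTH and given the symbol XTH1 in the RefSeq table, had 108, 110.4 and 44.1 FPKM in the GmRAV1-ox libraries, against 35.2, 82.8 and 20.5 FPKM in the DN50 libraries. DN50 replicate 2 lay above GmRAV1-ox replicate 3, so the groups overlapped, and the log2 fold change was 0.7 (95% interval -0.58 to 1.98, edgeR adjusted p 0.483).

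The XTH23 gene Glyma17g07270.1 was low in all libraries but lay apart, with 2.67, 2.2 and 8.58 FPKM in the GmRAV1-ox libraries, against 0.16, 0.82 and 0.33 FPKM in the DN50 libraries. Replicate 3 was here the highest library. The log2 fold change was 3.2 (95% interval 1.3 to 5.1, edgeR adjusted p 0.111). Without GmRAV1-ox replicate 3 it was 2.18 (edgeR adjusted p 0.0472). The table holds 6 XTH23 genes, of which this was the only one tested. Their sum was 5.25, 6.67 and 17.9 FPKM in GmRAV1-ox and 1.66, 3.16 and 1.36 FPKM in DN50. The sum was thus above DN50 in each GmRAV1-ox library and highest in replicate 3.

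Some XTHs were high in GmRAV1-ox replicate 3 alone and low in replicates 1 and 2. These genes are named after their values were seen. Glyma13g01150.1, described as XTH22, the soybean counterpart by name of the touch-induced TCH4 of Arabidopsis, had 2.4, 3.12 and 43.5 FPKM in the GmRAV1-ox libraries, against 9.74, 2.87 and 10.8 FPKM in the DN50 libraries. Only replicate 3 exceeded the DN50 range, and the log2 fold change was 0.98 with this library and -1.78 without it (edgeR adjusted p 0.671 and 0.0626). The XTH28 gene Glyma08g09940.1 had 15.3, 13.8 and 83.7 FPKM in GmRAV1-ox and 23.2, 23.9 and 31.7 FPKM in DN50. The XTH28 gene Glyma05g26960.1 had 14.7, 11.5 and 48.6 FPKM in GmRAV1-ox and 15.9, 21.6 and 26.2 FPKM in DN50. In both XTH28 genes replicates 1 and 2 were below every DN50 library and replicate 3 was above every one. The log2 fold changes over all libraries were 0.43 and 0.13, with edgeR adjusted p 0.778 and 0.918. Without GmRAV1-ox replicate 3 they turned to -1.11 and -0.95 and passed the threshold by edgeR (adjusted p 0.00692 and 0.0209). The direction for these 2 XTH28 genes therefore rested on this library. The other tested XTH28, Glyma20g01520.1, had 11.4, 8.54 and 11.3 FPKM in GmRAV1-ox and 9.59, 15.7 and 11.8 FPKM in DN50, with overlapping groups and a log2 fold change of -0.41 with GmRAV1-ox replicate 3 and -0.57 without it. In the XTH30 gene Glyma01g01770.1, with 2.5, 1.97 and 22.3 FPKM in GmRAV1-ox and 12.4, 4.38 and 28.3 FPKM in DN50, replicates 1 and 2 were likewise below every DN50 library, while replicate 3 lay within the DN50 range. The XTH33 gene Glyma18g18920.1 had 0.12, 0 and 4.1 FPKM in GmRAV1-ox and 1.87, 0.24 and 9.95 FPKM in DN50, with the same placing of the libraries. Their log2 fold changes were -0.82 (95% interval -3.4 to 1.77) and -1.55 (-5.29 to 2.19), and -2.98 and -5.9 without GmRAV1-ox replicate 3 (edgeR adjusted p 0.0599 and 0.11).

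XTH26, whose Arabidopsis namesake is expressed in roots, showed the opposite library pattern. Glyma08g04020.1, also named after its values were seen, had 13.5, 29.2 and 2.44 FPKM in GmRAV1-ox and 1.96, 2.55 and 0.84 FPKM in DN50, with a log2 fold change of 2.8 (edgeR adjusted p 0.144, and 0.00391 without GmRAV1-ox replicate 3). Of the 16 XTHs not tested, the 4 described as XTH32 had counts in GmRAV1-ox replicates 1 or 2 only. Their counts in those 2 libraries were 7 and 8.96, 9 and 4, 1 and 5.7, and 0 and 2.3, against 0 in the other 4 libraries, and at this depth a difference of that size was not tested. The untested Glyma19g28220.1, a probable XTH named after its values were seen, with 16, 22 and 4 counts in the GmRAV1-ox libraries, against 1, 0 and 1 counts in the DN50 libraries, was called by DESeq2 (adjusted p 0.0361).

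**Figure D3:**
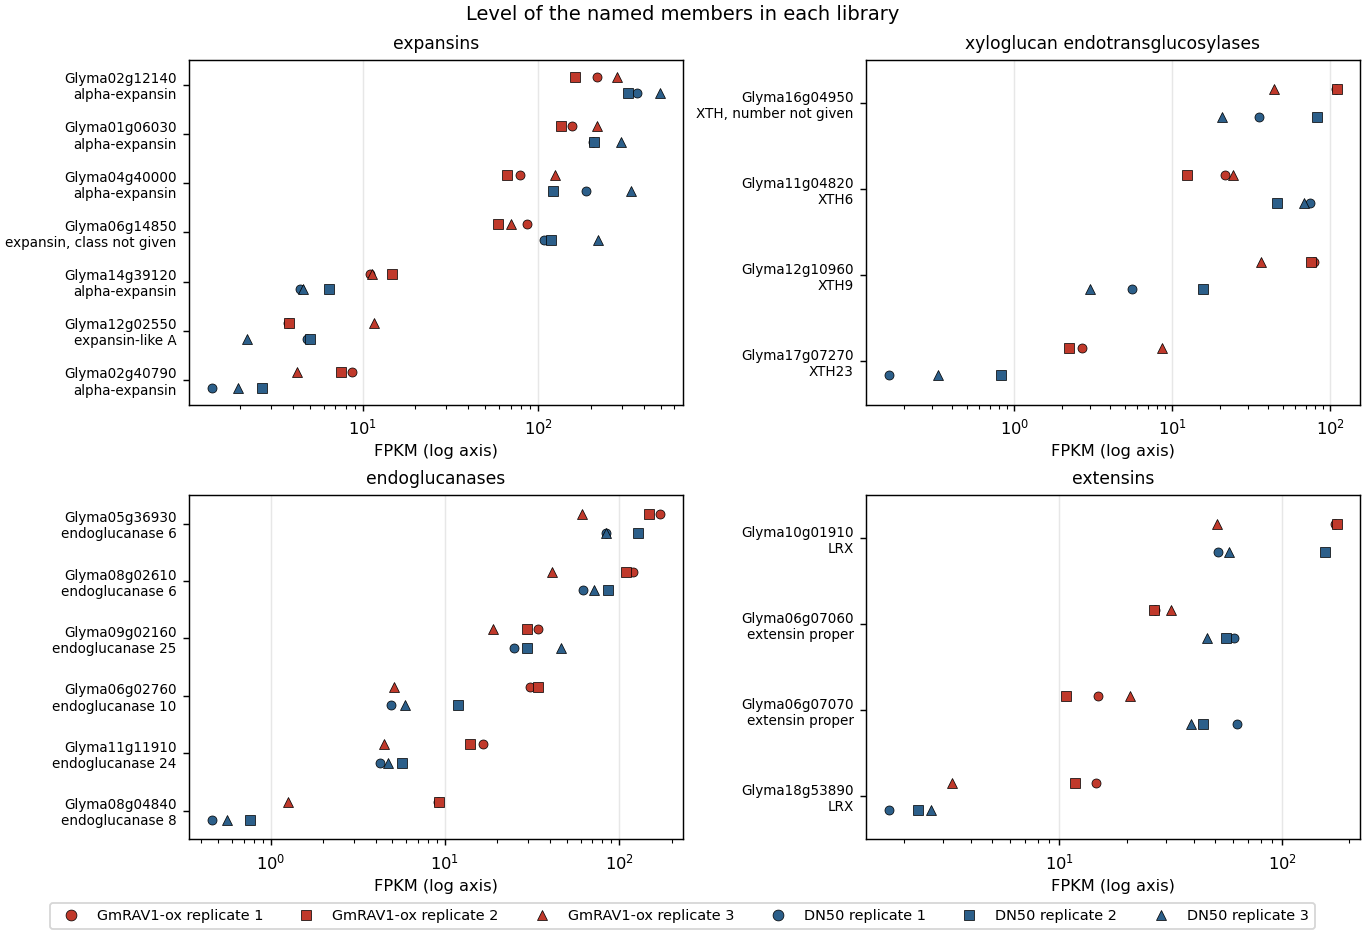
FPKM (log axis) of the genes named by rule in each family, with GmRAV1-ox libraries (red) drawn above DN50 libraries (blue) for each gene and a marker shape for each replicate number. In Glyma11g04820.1, Glyma06g07060.1 and Glyma06g07070.1 all red points lie left of the blue ones, and in Glyma12g10960.1, Glyma17g07270.1, Glyma08g04840.1 and Glyma14g39120.1 all lie right of them.

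Both endoglucanase 6 genes and 3 of the 5 endoglucanase 25 genes had estimates near 0, while several genes of other classes were high in GmRAV1-ox replicates 1 and 2. None of the 15 tested passed the adjusted threshold by edgeR, and 2 had an unadjusted p under 0.05, both higher (13.3%, background 21.3%). Estimates ran from -0.96 to 3.22, 10 above 0 and 5 below. DESeq2 called 5 of the 27 (18.5%, background 4.84%), all higher (background 2.08%). Without GmRAV1-ox replicate 3, 9 genes passed as higher and 1 as lower by edgeR among 19 tested (52.6%, background 18.3%). The filter of that fit let in genes high in replicates 1 and 2 alone, which the fit of all libraries did not test.

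The highest levels belonged to the endoglucanase 6 genes Glyma05g36930.1 and Glyma08g02610.1, of a class with a cellulose-binding module at the carboxyl end. Glyma05g36930.1 had 171, 148 and 61.3 FPKM in the GmRAV1-ox libraries, against 84.2, 128 and 84.1 FPKM in the DN50 libraries. Glyma08g02610.1 had 120.5, 109 and 40.9 FPKM in the GmRAV1-ox libraries, against 61.6, 86.6 and 71.4 FPKM in the DN50 libraries. In both, GmRAV1-ox replicates 1 and 2 were the highest libraries and replicate 3 the lowest of all 6. The log2 fold changes were 0.15 (95% interval -0.65 to 0.95) and 0.09 (-0.7 to 0.87), with edgeR adjusted p 0.832 and 0.901. Both estimates are close to 0 and changed sign in some alternatives. Both held counts that were not whole, and their sum, 498, 404 and 195 CPM in GmRAV1-ox against 315, 411 and 280.3 CPM in DN50, had a ratio of 1.09.

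Endoglucanase 25 is the class of Arabidopsis KORRIGAN, a membrane-bound enzyme needed for cellulose synthesis. Of its 5 genes, Glyma09g02160.1 had 33.96, 29.4 and 18.9 FPKM in the GmRAV1-ox libraries, against 25, 29.6 and 46 FPKM in the DN50 libraries, with overlapping groups and a log2 fold change of -0.47 (95% interval -1.02 to 0.09, edgeR adjusted p 0.303). The next 3 had estimates even closer to 0 and are named after their values were seen. Glyma17g00710.1 had 35.7, 33.5 and 23.7 FPKM in GmRAV1-ox and 22.1, 27.7 and 34.1 FPKM in DN50. Glyma15g13080.1 had 28.9, 28.1 and 25.1 FPKM in GmRAV1-ox and 19.2, 25.5 and 30.9 FPKM in DN50. Glyma07g40090.1 had 18.9, 23.2 and 19.7 FPKM in GmRAV1-ox and 16.2, 18.2 and 20.9 FPKM in DN50. Their log2 fold changes were -0.03, -0.05 and -0.02, with 95% intervals of -0.45 to 0.38, -0.43 to 0.34 and -0.35 to 0.32. All 3 intervals thus lay between -0.45 and 0.38. The fifth, Glyma06g12910.1, was low and unlike them, with 0.29, 0 and 3.03 FPKM in GmRAV1-ox and 1.74, 1.15 and 3.21 FPKM in DN50. It was nearly missing from replicates 1 and 2 while replicate 3 lay within the DN50 range, and without GmRAV1-ox replicate 3 its log2 fold change was -3.93 (edgeR adjusted p 0.0159), against -0.96 with it.

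Glyma08g04840.1, an endoglucanase 8, whose Arabidopsis counterpart CEL1 is expressed in growing tissue, had the smallest p of the family, with 9.13, 9.28 and 1.26 FPKM in the GmRAV1-ox libraries, against 0.46, 0.76 and 0.56 FPKM in the DN50 libraries. Its groups did not overlap, although replicate 3 was near the DN50 level. The log2 fold change was 3.22 (95% interval 1.56 to 4.88, edgeR adjusted p 0.094, 0.000699 by DESeq2, and 0.00132 without GmRAV1-ox replicate 3), and its counts were not whole. It was the only tested endoglucanase whose groups did not overlap (6.67%, background 26.0%). Glyma11g11910.1, an endoglucanase 24, had 16.4, 13.9 and 4.5 FPKM in GmRAV1-ox and 4.23, 5.67 and 4.69 FPKM in DN50, with a log2 fold change of 1.04 (95% interval 0.11 to 1.97, edgeR adjusted p 0.199). Glyma06g02760.1, an endoglucanase 10, had 30.7, 33.96 and 5.08 FPKM in GmRAV1-ox and 4.88, 11.9 and 5.9 FPKM in DN50, with a log2 fold change of 1.39 (95% interval -0.17 to 2.95, edgeR adjusted p 0.276). In Glyma11g11910.1 and Glyma06g02760.1 replicates 1 and 2 lay above every DN50 library and replicate 3 did not, and without replicate 3 their log2 fold changes were 1.37 and 1.83 (edgeR adjusted p 0.00625 and 0.00818). Glyma06g02760.1 and the other endoglucanase 10 gene, Glyma04g02740.1, which is named after its values were seen, both held counts that were not whole, and their sum was 108, 103 and 25.3 CPM in GmRAV1-ox against 26.6, 50.1 and 31.4 CPM in DN50. The 3 endoglucanase 24 genes summed to 26.3, 22.8 and 6.93 FPKM in GmRAV1-ox and 6.36, 10.48 and 9.22 FPKM in DN50. The 4 endoglucanase 11 genes summed to 13.02, 16.6 and 3.75 FPKM in GmRAV1-ox and 2.43, 10.4 and 2.13 FPKM in DN50. In both classes replicates 1 and 2 exceeded every DN50 library, and replicate 3 lay within the DN50 range.

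Steep differences between libraries also stood in endoglucanases too uneven or too low for the filter, named after their values were seen. Endoglucanase 1 gene Glyma18g03470.1 had 154, 292 and 5 counts in the GmRAV1-ox libraries, against 3, 10 and 4 counts in the DN50 libraries. Endoglucanase 17 gene Glyma02g01990.1 had 81.5, 107 and 9 counts in the GmRAV1-ox libraries, against 2, 4 and 0 counts in the DN50 libraries, and Glyma10g02130.1 of the same class had 67.5, 108 and 1 counts in the GmRAV1-ox libraries, against 1, 0 and 0 counts in the DN50 libraries. Replicates 1 and 2 held nearly all counts of these genes. A second endoglucanase 8, Glyma05g34850.1, had 47.3, 53.96 and 6 counts in the GmRAV1-ox libraries, against 1, 6 and 0 counts in the DN50 libraries. DESeq2 called all 4 (adjusted p 0.0191, 0.000141, 0.0216 and 0.013), and so did edgeR without GmRAV1-ox replicate 3, where they passed the filter. The other 8 untested endoglucanases had at most 20 counts in any library.

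Extensins held 18 genes described as extensin or proline-rich extensin-like, 23 LRXs and 5 pollen-type LRXs. A pair of extensins with adjacent identifiers stood lower in GmRAV1-ox, and many LRXs and extensins stood higher in GmRAV1-ox replicates 1 and 2. None of the 25 tested passed the adjusted threshold by edgeR, and 7 had an unadjusted p under 0.05 (28.0%, background 21.3%), 5 higher and 2 lower. On the CPM scale the groups lay apart in 5 of the 25 genes, 3 higher and 2 lower. That is a smaller share than the 26.0% of all tested genes. Estimates ran from -1.84 to 3.49, 17 above 0 and 8 below. DESeq2 called 5 of 46 (10.9%, background 4.84%), 3 higher and 2 lower.

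The lower pair was Glyma06g07060.1 and Glyma06g07070.1, both described as extensin-like. Glyma06g07060.1 had 26.9, 26.7 and 31.7 FPKM in the GmRAV1-ox libraries, against 61.03, 56.2 and 45.9 FPKM in the DN50 libraries. Glyma06g07070.1 had 14.9, 10.7 and 20.7 FPKM in the GmRAV1-ox libraries, against 62.9, 44.2 and 38.96 FPKM in the DN50 libraries. No GmRAV1-ox library of either gene reached the lowest DN50 library, and replicate 3 was the highest GmRAV1-ox library in both. The mean was 28.4 ± 2.83 FPKM in GmRAV1-ox and 54.4 ± 7.73 FPKM in DN50 for Glyma06g07060.1, and 15.4 ± 5.01 FPKM in GmRAV1-ox and 48.7 ± 12.6 FPKM in DN50 for Glyma06g07070.1 (SD, n = 3 each). The log2 fold changes were -1.12 (95% interval -1.64 to -0.61) and -1.84 (-2.67 to -0.997), with edgeR adjusted p 0.0716 and 0.075. DESeq2 called both (adjusted p 0.00309 and 0.000356), as did edgeR without GmRAV1-ox replicate 3 (adjusted p 0.00688 and 0.00546), and edgeR without scaling factors called Glyma06g07070.1 (adjusted p 0.0379). These 2 genes had whole counts in all libraries.

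Of the LRXs, the proteins that bind RALF peptides at the wall, Glyma10g01910.1 was by far the most abundant, with 174, 177 and 51.2 FPKM in the GmRAV1-ox libraries, against 51.7, 155 and 57.6 FPKM in the DN50 libraries. DN50 replicate 2 stood near GmRAV1-ox replicates 1 and 2, and GmRAV1-ox replicate 3 stood near the other DN50 libraries. The log2 fold change was 0.39 (95% interval -0.92 to 1.69, edgeR adjusted p 0.715). Glyma18g53890.1, an LRX6-like gene, had 14.7, 11.7 and 3.28 FPKM in the GmRAV1-ox libraries, against 1.71, 2.32 and 2.64 FPKM in the DN50 libraries, with no overlap between groups. Its log2 fold change was 1.94 (95% interval 0.79 to 3.08, edgeR adjusted p 0.111, 0.0229 by DESeq2, and 0.00345 without GmRAV1-ox replicate 3). Over all 12 tested LRXs, 4 had an unadjusted p under 0.05, all of them higher (background 21.3%, 10.6% higher), and estimates ran from -0.14 to 1.94 on the log2 scale.

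Among the LRXs with an unadjusted p under 0.05, those not covered by the naming rule, and so named after their values were seen, were Glyma07g15120.1, Glyma07g37200.1 and Glyma11g36470.1. Glyma07g15120.1 had 12.1, 12.8 and 4.07 FPKM in GmRAV1-ox and 3.6, 4.21 and 2.77 FPKM in DN50. Glyma07g37200.1 had 16.3, 20.2 and 8.23 FPKM in GmRAV1-ox and 3.47, 9.15 and 6.87 FPKM in DN50. In both, GmRAV1-ox replicate 3 lay within the DN50 range while replicates 1 and 2 were above it, and both passed by edgeR without replicate 3 (adjusted p 0.0068 and 0.0382). Glyma11g36470.1, an LRX5-like gene, had 18.1, 22.6 and 19.4 FPKM in GmRAV1-ox and 12.4, 15.1 and 11.97 FPKM in DN50, apart from DN50 in every library but with a log2 fold change of only 0.42 (edgeR adjusted p 0.216).

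The LRX5-like Glyma08g04390.1 did not pass the filter, with 33, 47 and 9 counts in the GmRAV1-ox libraries, against 1, 2 and 0 counts in the DN50 libraries. In edgeR without the filter it was called at an adjusted p of 0.0403, with 0.796% of all genes called, and DESeq2 called it at 0.00152. Every GmRAV1-ox library held more counts than any DN50 library. Its neighbour by identifier, Glyma08g04400.1, had 23, 36 and 3 counts in the GmRAV1-ox libraries, against 0, 5 and 1 counts in the DN50 libraries, and the LRX5-like Glyma02g45690.1 had 27, 110.0 and 0 counts in the GmRAV1-ox libraries, against 0, 3 and 3 counts in the DN50 libraries. All 3 were named after their values were seen. The 5 pollen-type LRXs, whose Arabidopsis counterparts act in pollen tubes, summed to 11.7, 7.39 and 4.2 FPKM in GmRAV1-ox and 3.96, 7.24 and 3.53 FPKM in DN50, and 1 of them was tested.

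A wide span within GmRAV1-ox was seen in Glyma08g27760.1, a proline-rich extensin-like gene named after its values were seen, with 92.9, 82.6 and 0.99 FPKM in the GmRAV1-ox libraries, against 1.46, 11.4 and 0.41 FPKM in the DN50 libraries. It was the second highest extensin in replicates 1 and 2 and under 1 FPKM in replicate 3. The log2 fold change of 3.49 had a 95% interval of -0.18 to 7.16 (edgeR adjusted p 0.252, and 0.0784 without GmRAV1-ox replicate 3). The related Glyma18g50970.1 had 15.5, 16.3 and 1.5 FPKM in GmRAV1-ox and 1.69, 3.23 and 1.74 FPKM in DN50, with edgeR adjusted p 0.188 with all libraries and 0.00252 without GmRAV1-ox replicate 3. The 21 extensins not tested had at most 110 counts in any library, a value reached by Glyma02g45690.1.

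The tested genes were also counted library by library, since GmRAV1-ox replicate 3 stood apart. GmRAV1-ox replicate 1 was above every DN50 library in 16 of 30 expansins, 7 of 17 XTHs, 9 of 15 endoglucanases and 15 of 25 extensins, against 33.4% of all tested genes. Replicate 2 was above in 14, 7, 8 and 12 of them, against 36.1% of all genes. Replicate 1 was below every DN50 library in 7, 7, 2 and 3 of them, against 32.8% of all genes, and replicate 2 in 10, 7, 2 and 4, against 35.4%. Replicate 3 was above every DN50 library in 7 expansins, 7 XTHs, 1 endoglucanase and 4 extensins, against 28.8% of all genes. It was below every DN50 library in 11 expansins, 1 XTH, 8 endoglucanases and 13 extensins, against 27.7% of all genes. The number of XTHs above DN50 was thus 7 in each GmRAV1-ox library, while that of endoglucanases and extensins was lowest in replicate 3. A gene was above every DN50 library in replicates 1 and 2 and not in replicate 3 in 11 expansins (36.7%), 3 XTHs (17.6%), 7 endoglucanases (46.7%) and 8 extensins (32.0%), against 13.1% of all tested genes, a pattern chosen after the values were seen.

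**Figure D4:**
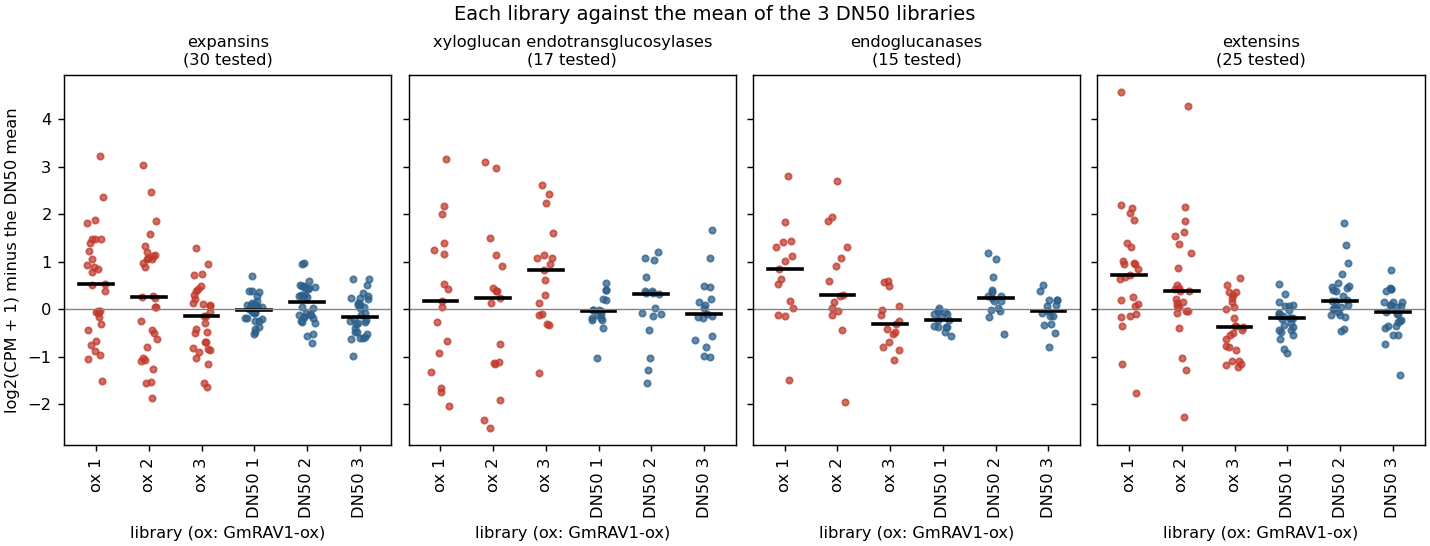
Difference of each tested gene in each library from the mean of the 3 DN50 libraries, on log2(CPM + 1), with GmRAV1-ox (ox) left of DN50 and black bars at the family's median. The endoglucanase medians are 0.84, 0.30 and -0.31 in GmRAV1-ox replicates 1, 2 and 3, and the XTH medians are 0.17, 0.23 and 0.83.

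Leaving out GmRAV1-ox replicate 3 moved the calls of the 4 families more than leaving out any other library. EdgeR then called 14 of 30 expansins (46.7%), 7 of 19 XTHs (36.8%), 10 of 19 endoglucanases (52.6%) and 16 of 34 extensins (47.1%), against 18.3% of all tested genes. These are 47 of the 102 genes tested in that fit (46.1%). Higher in GmRAV1-ox were 36 of the 102, against 8.62% of all tested genes. Lower were 11 of the 102, which is near the 9.66% of all tested genes. The 5 expansins called lower were Glyma02g12140.1, Glyma01g06030.1, Glyma04g40000.1, Glyma06g14850.1 and Glyma07g15910.1, the last named after its values were seen, and the lower XTHs were Glyma11g04820.1 and the 2 XTH28 genes. The single lower endoglucanase was Glyma06g12910.1, and the lower extensins were Glyma06g07060.1 and Glyma06g07070.1. Leaving out any other library called none of the genes, except that Glyma12g10960.1 was called without DN50 replicate 2. The fit without GmRAV1-ox replicate 3 compares 2 GmRAV1-ox libraries with 3 DN50 libraries. It tested 102 genes of the families, against 87 with all libraries. Genes high in replicates 1 and 2 alone could pass its filter through those libraries. The shares called are therefore not a fair measure of the families. Glyma18g03470.1, Glyma02g01990.1, Glyma10g02130.1 and Glyma05g34850.1 entered in this way and are among the 10 endoglucanases called. The dividing-cell markers summed to 115, 199 and 65.7 CPM in GmRAV1-ox replicates 1, 2 and 3, against 49.5 to 57.6 CPM in DN50. Their sum was thus above every DN50 library in replicate 3 as well. Over all libraries 12 markers were tested, with a median log2 fold change of 1.76. By edgeR, 7 of the 12 had an unadjusted p under 0.05, all higher (58.3%, background 21.3%). Without GmRAV1-ox replicate 3, edgeR called 15 of 19 markers, all higher (78.9%), a larger share than in the 4 families. The part of these markers in the calls was not tested.

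**Figure D5:**
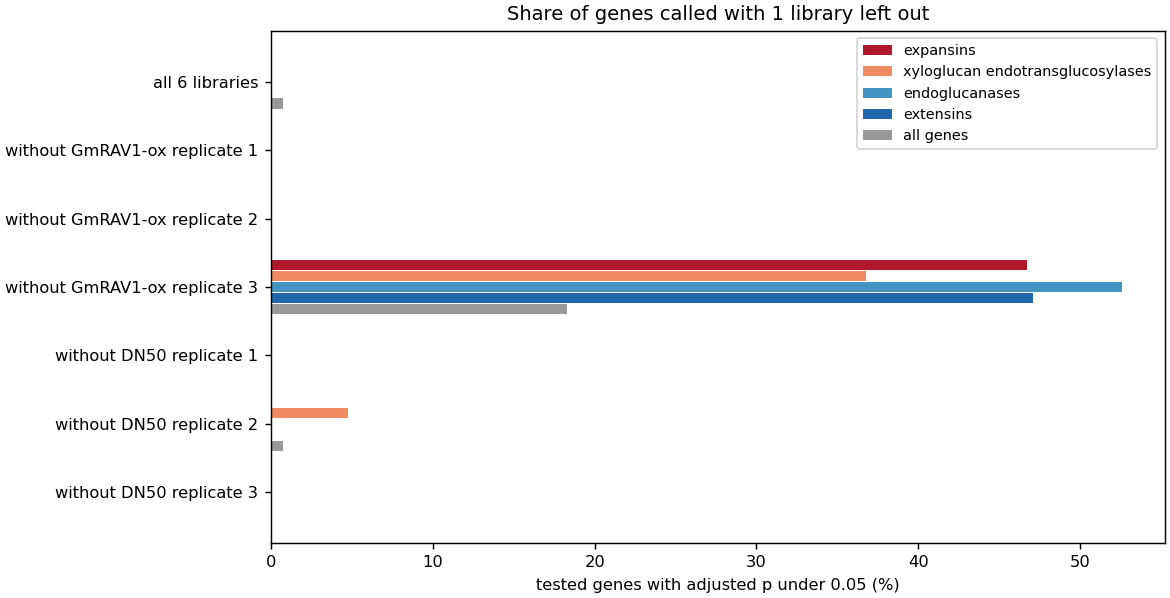
Share of tested genes with edgeR adjusted p under 0.05 in each family and over all genes, with all 6 libraries and with each library left out in turn. Without GmRAV1-ox replicate 3 the shares are 46.7%, 36.8%, 52.6% and 47.1% in the 4 families and 18.3% over all genes. The other fits call at most 1 gene of the families and at most 0.711% of all genes.

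Other genes of wall growth were set beside the 4 families. Xyloglucan is made in the Golgi by glycan synthases and side-chain transferases and trimmed in the wall, and of 39 such genes 30 were tested. None passed by edgeR, 9 were higher and 1 lower at an unadjusted p under 0.05 (10.6% of all tested genes were higher and 10.7% lower at that p, which holds for the next lists too), and the median log2 fold change was 0.49. The smallest p was that of Glyma19g35210.1, a KATAMARI1-like xyloglucan galactosyltransferase, with 15.9, 21.8 and 13.98 FPKM in the GmRAV1-ox libraries, against 8.36, 10.3 and 10.6 FPKM in the DN50 libraries. Its groups did not overlap and its log2 fold change was 0.63 (edgeR adjusted p 0.11).

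Other structural wall proteins, such as arabinogalactan and proline-rich proteins, numbered 91, with 59 tested, 11 higher and 5 lower at an unadjusted p under 0.05 and a median log2 fold change of 0.05. Glyma08g07490.1, a classical arabinogalactan protein 1-like gene, had 46.8, 67.2 and 21.6 FPKM in the GmRAV1-ox libraries, against 8.49, 14.6 and 8.77 FPKM in the DN50 libraries, with a log2 fold change of 1.87 (edgeR adjusted p 0.0768). No GmRAV1-ox library reached down to the DN50 range. Prolyl 4-hydroxylases and glycosyltransferases that modify extensins numbered 11, with 8 tested and none at an unadjusted p under 0.05. The smallest p among them was that of the prolyl 4-hydroxylase Glyma20g39250.1, with a log2 fold change of -0.65 (edgeR adjusted p 0.283).

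The list for growth control (auxin-induced proteins, proton pumps, COBRA and the receptor kinases FERONIA and THESEUS) held 155 genes, of which 24 are calcium-transporting ATPases caught by the wording. Of 59 tested, 7 were higher and 10 lower at an unadjusted p under 0.05, with a median log2 fold change of -0.25. The AUX22 gene Glyma07g03840.1, of the Aux/IAA family of auxin-response repressors, had 13.6, 14.3 and 5.75 FPKM in the GmRAV1-ox libraries, against 2.06, 2.94 and 2.65 FPKM in the DN50 libraries. The groups did not overlap, and the log2 fold change was 1.92 (edgeR adjusted p 0.075). No gene of these 4 lists passed by edgeR over all 6 libraries. DESeq2 called 14 of the 295 genes for which it gave a p, which is near the share of all genes (4.84%). The fit without GmRAV1-ox replicate 3 called 44 of 162 (background 18.3%).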

How the data were processed

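The tables of 6 soybean leaf RNA-seq libraries were used. Per the file headers they hold coding lengths, expected counts and FPKM for each gene. The deposited expected counts estimate how many reads a gene had, and between 29.6% and 30.5% of those above 0 were not whole. FPKM values were computed by the authors, and the deposited whole-series table repeats them (largest difference 0). Per the submitters' processing notes, TopHat and Cufflinks were used. Their versions, the genome build and the annotation are not stated, and the files' identifiers are used as they stand. All listed lengths are multiples of 3. Genes that a table does not list were set to 0. For names, 130 of 154 genes matched an accession of the RefSeq table (assembly Glycine_max_v4.0), and 8 carried a symbol there.

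Counts were rounded and filtered with filterByExpr (edgeR 4.0.16, R 4.3.3). Libraries were scaled by TMM (factors 0.849 to 1.17), and GmRAV1-ox was tested over DN50 with edgeR's quasi-likelihood F test, robust, 2-sided, and p-values were adjusted by Benjamini-Hochberg over the 26272 genes that passed the filter, with 0.05 as threshold. The fitted log2 fold changes are given with 95% intervals. No list was tested as a set. The script was tested on simulated data. Alternatives were no scaling factors, DESeq2's size factors, no count filter, a filter at a mean of 1 FPKM, no robust estimation, DESeq2 1.42.0, limma 3.58.1 on log2(FPKM + 1) and log2(FPKM + 0.1) with a mean of at least 0.5 FPKM, a replicate block and each library left out. Members, lists and tests were chosen with earlier results of these data known. The naming rule takes genes past the threshold, the 3 smallest p and 3 highest mean FPKM per family, expansin-like classes of 5 or fewer genes, and the smallest p of each other list. It named 25 genes, and the other genes in the text were named after their values were seen. The rule for XTHs did not take other spellings of the enzyme's name, and 0 genes outside the family carry them. Of the marker lists not given in the report, 34 xylem genes summed to 239, 126 and 121 CPM in GmRAV1-ox and 183, 175 and 246 CPM in DN50, 29 epidermis and guard cell genes to 914, 704 and 1112 CPM in GmRAV1-ox and 915, 984 and 965 CPM in DN50, and 25 root genes to 725, 482 and 979 CPM in GmRAV1-ox and 1091, 1037 and 633 CPM in DN50. The 4 seed genes stayed under 1.5 CPM in sum, and the nodule list held only leghemoglobin reductases.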

Additional observations from a re-analysis of the deposited data

How the results depend on the processing

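Over all genes, 184 calls became 293 without the count filter, 1781 with DESeq2, 98 with limma on log2(FPKM + 1), 79 with limma on log2(FPKM + 0.1) and 1621 (6.17%) with the replicate block, and between 0 and 5055 with a library left out. Against 0 calls in each family over all 6 libraries by edgeR, DESeq2 called 6 expansins, 5 XTHs, 5 endoglucanases, 5 extensins and 14 of 295 genes of the other wall lists. The DESeq2 share over all genes was 4.84%. The replicate block called 6, 3, 1, 3 and 19. Leaving out a library gave 0 to 14 expansins, 0 to 7 XTHs, 0 to 10 endoglucanases, 0 to 16 extensins and 0 to 44 other wall genes, the highest each time without GmRAV1-ox replicate 3. The fit without GmRAV1-ox replicate 3 called 18.3% of all tested genes. No scaling factors called 1 XTH and 1 extensin, no count filter 1 extensin, and limma on log2(FPKM + 0.1) 2 other wall genes. Whether the replicate numbers pair the libraries is not given by the labels. Correlations of the deviations between libraries of the same number were -0.301, 0.398 and 0.295, which does not settle it. Calls under the block therefore assume that pairing. Under it 13 of the 87 tested genes of the families were called (14.9%, background 6.17%). Of 375 values for the 25 genes named by rule, 323 stayed on their side of the threshold in the same direction, 46 newly passed and 6 changed sign: Glyma05g36930.1 at -0.0087 without DN50 replicate 3 and -0.14 without GmRAV1-ox replicate 1, Glyma08g02610.1 at -0.0139 under the replicate block, -0.19 without GmRAV1-ox replicate 1 and -0.0069 without GmRAV1-ox replicate 2, and Glyma12g02550.1 at -0.37 without GmRAV1-ox replicate 3. With a library left out, the highest values of these 3 genes were 0.427, 0.383 and 0.829. The cause was not tested. Genes with few counts, such as the XTH32 genes, are limited by depth.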
